A study of Mus musculus with 81 samples.

Results

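The transcripts of 10 macrophage and myeloid genes were followed through RNA-seq of mouse thymus and thymic lymphoma: Cd68, Adgre1, Csf1r, Itgam, C1qa, C1qb, C1qc, Mrc1, Lyz2 and Cd14. They were taken by symbol as a set of genes that mark macrophages and related myeloid cells, and are 10 of the 51826 genes in the count table. All 10 were found, and all 10 passed the filter on low counts in every fit. The series examined how aneuploidy bears on tumour development. Every animal carried a Plk4 transgene at Col1a1, rtTA at Rosa and a centrin-GFP reporter at Rosa on a C57BL/6 x 129S4Sv/Jae background, so that doxycycline raises Plk4, the kinase that starts centriole duplication. The groups were normal thymus of untreated p53+/+ mice (8 mice), lymphoma of untreated p53-/- mice (10 mice, 23 libraries), lymphoma of doxycycline-treated p53-/- mice (9 mice, 18 libraries) and lymphoma of doxycycline-treated p53+/- mice (12 mice, 31 libraries). Treatment lasted 2 weeks from day 30 of age, and normal thymus of 1 untreated p53+/- mouse was also sequenced. Normal thymus was sampled only from untreated mice with at least 1 working p53 allele. Tissue and genotype thus cannot be told apart in any comparison with normal thymus. In those of both treated groups, treatment cannot be told apart from them either. The age at collection is not given in the sources used here.

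Tissue macrophages depend on the receptor encoded by Csf1r, which binds the cytokines CSF1 and IL-34 and keeps the cells alive and dividing. In the thymus they engulf the many thymocytes that die during selection, and in tumours they are a common part of the stroma. C1qa, C1qb and C1qc encode the 3 chains of C1q, the recognition part of the first complement component, which in tissues is made mostly by macrophages and also tags dead cells for uptake. Cd68 encodes a glycoprotein of late endosomes and lysosomes, and Lyz2 the lysozyme of macrophages, monocytes and neutrophils. Adgre1 encodes the F4/80 antigen of mature mouse macrophages, Itgam the CD11b chain of complement receptor 3, which monocytes, neutrophils and many macrophages carry, Mrc1 the mannose receptor, and Cd14 the co-receptor that hands lipopolysaccharide to Toll-like receptor 4.

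The 81 libraries held between 1030400 and 26871729 counts. Biopsies of a mouse were summed, which gave 40 mice with 5009244 counts or more, and values are counts-per-million (CPM) of all counts of the mouse or biopsy. Nothing in the labels says that the mice of a group came from separate litters or days, so p-values measure the spread between these mice alone. The labelled tissue was checked on summed CPM of marker lists. The 8 T cell markers summed to 1863 to 5062 CPM in 30 of 31 lymphomas, but to 160 CPM in untreated p53-/- mouse 881, whose 8 B cell markers summed to 3945 CPM. The normal thymus of mouse 387 also stood apart: its thymic epithelial markers summed to 137 CPM against 1462 to 2793 CPM in the other 7, its T cell markers to 686 CPM, and its fat cell markers to 11727 CPM. All 8 normal p53+/+ thymuses held fat cell transcripts (1125 to 11727 CPM, 30.5 to 230 CPM in lymphomas), among them Ucp1 of brown fat. Of the normal p53+/+ mice 4 of 8 were labelled male. In the lymphoma groups 9 of 10 untreated p53-/-, 4 of 9 treated p53-/- and 3 of 12 treated p53+/- mice were. In 3 mice (328, 869 and 870) the sex-linked genes did not match the labelled sex. Values of the 10 genes and counts of the lists are given without mouse 387 as well where leaving it out ends a call, turns a direction or moves a value by over 1.5 times.

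The 10 genes covered a wide range of levels, compared here per kilobase of exon. Lyz2 was the most abundant at a median of 315 CPM per kb over the 31 lymphomas (95.4 to 792), followed by C1qb at 149, C1qa at 107, C1qc at 62.9 and Cd68 at 42.6. The 5 receptors of the cell surface were lower, from Csf1r at 8.17 and Adgre1 at 5.13 through Mrc1 at 4.64 and Itgam at 3.99 to Cd14 at 3.15 CPM per kb. Among these 5 the ranges over mice overlapped throughout. In normal thymus the medians were 336 for Lyz2, 146 for C1qa, 143 for C1qb, 64.9 for C1qc, 33.1 for Cd68, 9.82 for Csf1r, 6.57 for Mrc1, 5.42 for Adgre1, 3.43 for Cd14 and 2.03 for Itgam. Secreted and lysosomal products stood above the surface receptors in both tissues, and Itgam had the lowest median in normal thymus but not in lymphoma.

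The first comparison was lymphoma against normal thymus, tested with edgeR's quasi-likelihood test over all 17843 genes that passed the filter, with labelled sex as a covariate and Benjamini-Hochberg adjustment over those genes. A gene was called at an adjusted p under 0.05. Of the 10 genes, 0 were called in untreated p53-/- lymphoma, 1 in treated p53-/- lymphoma (C1qa, lower) and 0 in treated p53+/- lymphoma. Over all genes tested the shares called were 40.7%, 52.1% and 50.9%, made up of 23.2%, 25.4% and 25.6% higher and 17.5%, 26.7% and 25.3% lower. At an unadjusted p under 0.05 the counts of members were also 0, 1 and 0. DESeq2 called C1qa alone in treated p53-/- lymphoma and 0 members in the other 2 groups, and limma voom called 0 in all 3. The shares of all genes that DESeq2 and limma voom called against normal thymus are not given here. The median log2 fold change of the 10 genes was -0.08, -0.22 and -0.01 in the 3 groups, against 0.08, -0.04 and -0.00 over all genes tested. The median size of the log2 fold change, whatever its sign, was 0.23, 0.29 and 0.16 for the 10 genes and 0.67, 0.81 and 0.77 for all genes. Without mouse 387 the members called were 1, 1 and 2 (Itgam higher in each, and Cd68 higher in treated p53+/- lymphoma), and the medians of the 10 genes were 0.24, 0.23 and 0.33. Over all 18043 genes tested in that fit the shares called were 40.3%, 48.6% and 46%, and the medians 0.21, 0.10 and 0.15. Standard errors of the members' log2 fold changes ran from 0.25 to 0.53, so changes of that order were not detectable with these mice. In bulk tissue, fewer cells of a type and less RNA per cell cannot be told apart.

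**Figure D1:**
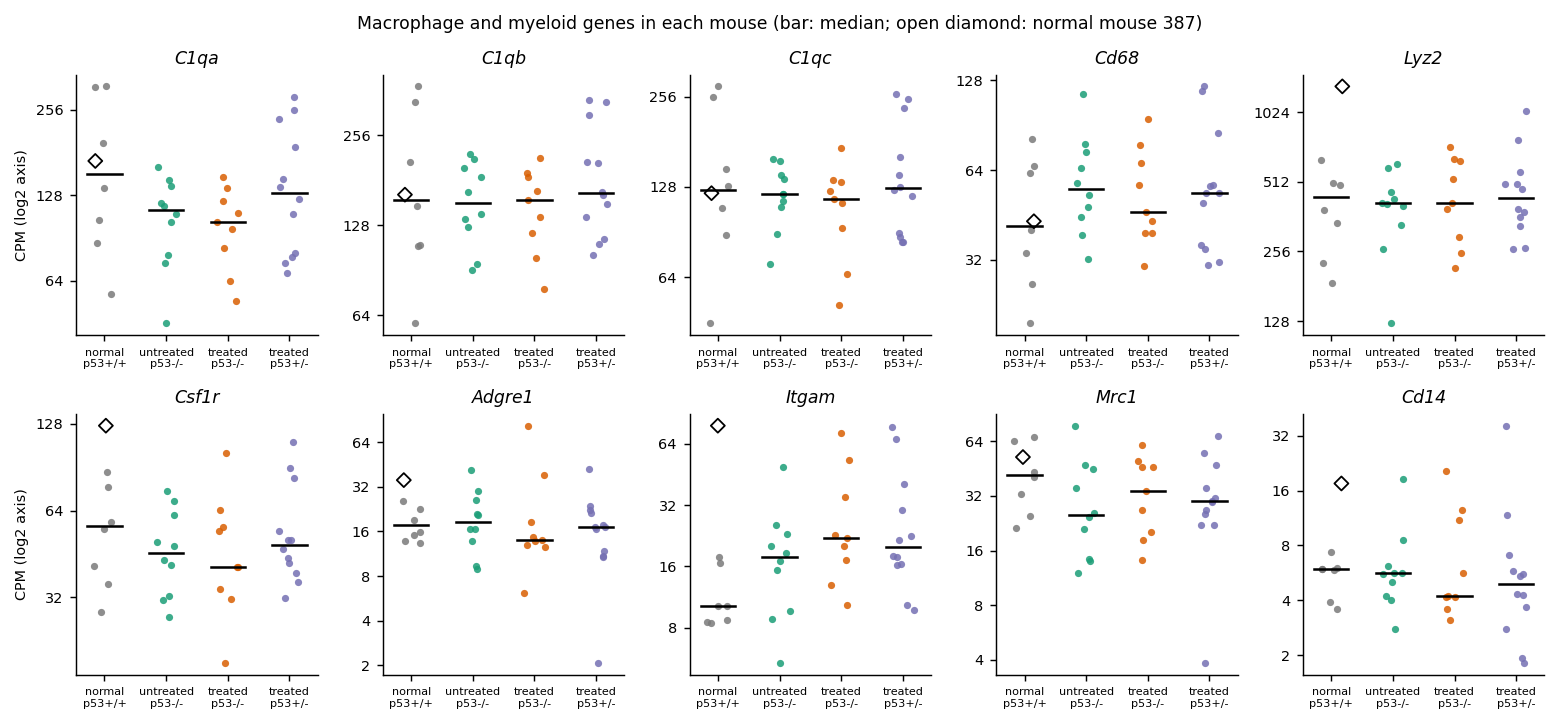
CPM of each of the 10 genes (log2 axis) in every mouse of normal p53+/+ thymus (8), untreated p53-/- lymphoma (10), treated p53-/- lymphoma (9) and treated p53+/- lymphoma (12), with bars at the medians and an open diamond for normal mouse 387. The groups overlap for every gene, and mouse 387 is the highest normal thymus for Lyz2, Csf1r, Adgre1, Itgam and Cd14.

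The 3 C1q genes lie side by side on chromosome 4, on the minus strand: C1qb (chr4:136880129-136886187), C1qc (chr4:136889804-136893065) and C1qa (chr4:136895917-136898803; GRCm38). C1qa ranged from 57.5 to 309 CPM in normal thymus (median 152), from 45.4 to 161 CPM in untreated p53-/- lymphoma (median 114), from 54.4 to 149 CPM in treated p53-/- lymphoma (median 103) and from 68.2 to 284 CPM in treated p53+/- lymphoma (median 130). No lymphoma lay above the normal range, 1 lay below it in each of the p53-/- groups, and all the others were inside it. The log2 fold change against normal thymus was -0.68 in treated p53-/- lymphoma (SE 0.29, adjusted p = 0.0464 by edgeR's quasi-likelihood test), -0.45 in untreated p53-/- lymphoma (SE 0.30, adjusted p = 0.236) and -0.08 in treated p53+/- lymphoma (SE 0.27, adjusted p = 0.817). The call depended on single mice: without mouse 387 the log2 fold change was -0.49 (adjusted p = 0.165), and it was also lost when any of 12 other mice was left out (266, 280, 490, 553, 643, 653, 663, 857, 869, 961, 978 or 980), with adjusted p between 0.0546 and 0.156. Leaving out each mouse in turn moved the log2 fold change between -0.80 and -0.49, so the direction stayed the same. Without mouse 387 the values of the other 2 groups were -0.30 in untreated p53-/- and 0.09 in treated p53+/- lymphoma, both uncalled. The C1qa call was also lost with limma voom, with single-biopsy tumours only and under 5 other settings.

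C1qb and C1qc were not called in any group. C1qb had medians of 155 CPM in normal thymus (60.1 to 373), 153 CPM in untreated p53-/- lymphoma (90.8 to 221), 155 CPM in treated p53-/- lymphoma (78.2 to 215) and 164 CPM in treated p53+/- lymphoma (102 to 335). C1qc had medians of 125 CPM (44.9 to 277), 121 CPM (71.1 to 159), 117 CPM (51.8 to 173) and 127 CPM (84.1 to 261) in the same order. All 31 lymphomas lay inside the normal range for both genes. The log2 fold changes of C1qb were -0.06, -0.25 and 0.18 and those of C1qc -0.09, -0.32 and 0.14 in the same order, with adjusted p between 0.31 and 0.878. Without mouse 387 they were 0.07, -0.09 and 0.33 for C1qb and 0.04, -0.17 and 0.28 for C1qc, so both turned sign in untreated p53-/- lymphoma, with no call.

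The bases just upstream of C1qb and C1qc are shown because these genes had the highest r of the 45 pairs over the lymphoma mice, followed by those of Cd68, the gene outside the C1q cluster that followed them most closely. The sequences are from RefSeq (GRCm38.p6), from the 250 bases before each start and outside the annotated gene, on the gene's own strand: chr4:136886201-136886450 for C1qb, chr4:136893066-136893164 for C1qc and chr11:69666171-69666420 for Cd68, all on the minus strand. Capitals mark GAGGAA, the core bound by the myeloid factor PU.1 (the product of Spi1), or its reverse complement TTCCTC.
C1qb: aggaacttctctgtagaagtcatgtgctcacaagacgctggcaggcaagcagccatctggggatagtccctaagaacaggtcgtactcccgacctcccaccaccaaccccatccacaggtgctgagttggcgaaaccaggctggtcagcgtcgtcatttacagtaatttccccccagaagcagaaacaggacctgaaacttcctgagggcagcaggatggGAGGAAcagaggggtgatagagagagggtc
C1qc: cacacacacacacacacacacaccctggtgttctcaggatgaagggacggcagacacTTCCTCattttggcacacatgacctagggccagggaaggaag
Cd68: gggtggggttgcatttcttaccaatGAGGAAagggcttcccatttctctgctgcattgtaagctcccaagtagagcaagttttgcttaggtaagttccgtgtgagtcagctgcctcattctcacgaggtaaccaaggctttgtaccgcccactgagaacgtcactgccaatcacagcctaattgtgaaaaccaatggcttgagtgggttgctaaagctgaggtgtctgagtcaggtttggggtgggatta
A match to GAGGAA on either strand begins 30 bases before the RefSeq start in C1qb, 193 before it in C1qc and 225 before it in Cd68. The search covered 250 bases before the start, and the motif was in 5 of the 6 members the table holds and in 23.3% of all 32851 promoters in it, 7639 in number. A match says that these letters are present, and nothing was measured here on binding.

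Cd68 had a positive fold change in all 3 groups without passing the test. The gene lies at chr11:69664213-69666153 on the minus strand. Its level ranged from 19.6 to 81.3 CPM in normal thymus (median 41.7), from 32.3 to 115 CPM in untreated p53-/- lymphoma (median 55.3), from 30.4 to 95 CPM in treated p53-/- lymphoma (median 46.2) and from 30.7 to 122 CPM in treated p53+/- lymphoma (median 53.6). The groups overlapped, with 1, 1 and 3 lymphomas above every normal thymus and 0 below. The log2 fold changes were 0.54 ± 0.29, 0.30 ± 0.28 and 0.50 ± 0.26 (± SE), with adjusted p of 0.135, 0.372 and 0.11 by edgeR's quasi-likelihood test. Without mouse 387 they were 0.67, 0.47 and 0.66. In treated p53+/- lymphoma Cd68 then passed the threshold (adjusted p = 0.0485), as it did without lymphoma mouse 280 (0.61, adjusted p = 0.0472).

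Lyz2 (chr10:117277331-117282321, minus strand) showed no shift past the test. Its medians were 442 CPM in normal thymus (187 to 1325), 413 CPM in untreated p53-/- lymphoma (125 to 611), 415 CPM in treated p53-/- lymphoma (216 to 727) and 434 CPM in treated p53+/- lymphoma (263 to 1042). The highest normal value was mouse 387 and the next 638 CPM, while the lowest of all lymphomas was untreated p53-/- mouse 643 at 125 CPM, the only mouse outside the normal range. The log2 fold changes were -0.16, -0.18 and -0.05 (adjusted p 0.65 to 0.903) and became 0.32, 0.43 and 0.58 without mouse 387 (adjusted p = 0.363, 0.19 and 0.0671). Lyz1, a near copy of Lyz2 whose reads could be shared between the 2 genes, had medians of 6.36, 4.56 and 7.75 CPM against 13.5 CPM in normal thymus. Its log2 fold change was -1.83 in treated p53-/- lymphoma (adjusted p = 0.0135), -1.51 in untreated p53-/- (adjusted p = 0.0632) and -0.89 in treated p53+/- lymphoma (adjusted p = 0.179). Without mouse 387, at 71.9 CPM the highest, these values were -0.80 (adjusted p = 0.229), -0.72 (adjusted p = 0.313) and 0.24 (adjusted p = 0.742), so none was called and the last turned direction.

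The result for Itgam (chr7:128062640-128118491, plus strand) depended on 1 library. The normal thymuses held 8.42 to 17.7 CPM, apart from mouse 387 at 78.5 CPM, and their median was 10.2 CPM. The lymphomas held 5.39 to 49.0 CPM in the untreated p53-/- group (median 17.9), 10.3 to 72.1 CPM in the treated p53-/- group (median 22.1) and 9.73 to 77.4 CPM in the treated p53+/- group (median 19.8). No lymphoma lay above mouse 387, and of the 3 lymphoma groups 5, 6 and 8 mice lay above the other 7 normal thymuses. With all 8 normal thymuses the log2 fold changes were 0.37 (SE 0.47), 0.41 (SE 0.45) and 0.30 (SE 0.43), and none was called (adjusted p 0.459 to 0.58, edgeR's quasi-likelihood test). Without mouse 387 they were 1.06 ± 0.42, 1.29 ± 0.44 and 1.25 ± 0.44 (± SE), with adjusted p of 0.0399, 0.0149 and 0.0187, so Itgam was then called higher in all 3 groups. With all 8, limma voom gave 0.68, 0.91 and 0.76, with none called, and without sex in the model the untreated p53-/- value was -0.10. The CD11b partner chain Itgb2, which is in the list of CD14 and mannose receptor partners, fell in all 3 groups (log2 fold change -0.59, -0.82 and -0.84, adjusted p = 0.0318, 0.00212 and 0.00107), and without mouse 387 it was still called in both treated groups. The median of Itgb2 was 228 CPM in normal thymus and 115 CPM in the lymphomas, against 10.2 and 20.1 CPM for Itgam. Which cells the Itgb2 transcripts came from was not tested.

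**Figure D2:**
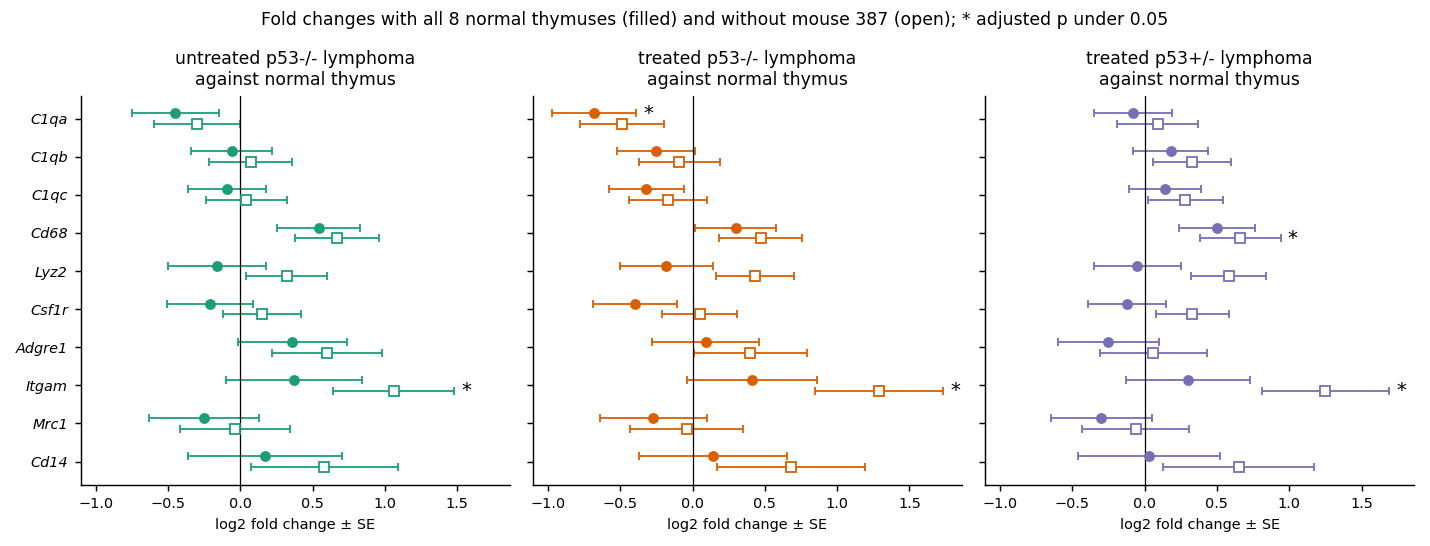
Log2 fold change ± SE of each of the 10 genes against normal thymus in the 3 lymphoma groups, with all 8 normal thymuses (filled circles) and without mouse 387 (open squares); stars mark an adjusted p under 0.05. C1qa in treated p53-/- lymphoma is starred only with all 8, Itgam in all 3 groups and Cd68 in treated p53+/- lymphoma only without mouse 387.

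The other 4 surface receptors also stayed short of the threshold. Csf1r had medians of 56.7 CPM in normal thymus (28.5 to 126), 45.7 CPM (27.4 to 74.9) in untreated p53-/-, 40.9 CPM (19 to 101) in treated p53-/- and 48.8 CPM (31.8 to 111) in treated p53+/- lymphoma. Of the lymphomas, 1 in each p53-/- group lay below the normal range and all others inside it. Its log2 fold changes of -0.21, -0.40 and -0.12 turned to 0.15, 0.05 and 0.33 without mouse 387, with no call either way. Mrc1 (chr2:14229392-14332057, plus strand) had medians of 41.9 CPM (21.4 to 67.6) in normal thymus and 25.0 CPM (12.1 to 78.0), 34.1 CPM (14.2 to 61.1) and 29.9 CPM (3.86 to 68.5) in the lymphoma groups in the same order. The normal range left out 4 of 10, 3 of 9 and 1 of 12 lymphomas on its low side and 1, 0 and 1 on its high side. The log2 fold changes were -0.25, -0.27 and -0.30 (SE 0.35 to 0.38, adjusted p 0.487 to 0.631), and -0.04, -0.04 and -0.06 without mouse 387.

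Over the lymphomas the SD of log2 CPM was 0.94 for Adgre1 and 0.96 for Cd14, close to 0.93 for Itgam and 0.88 for Mrc1. Adgre1 (chr17:57358691-57483527, plus strand) had a median of 17.5 CPM in normal thymus (13.4 to 35.5), 18.6 CPM in untreated p53-/- (8.88 to 41.6), 14 CPM in treated p53-/- (6.13 to 82.7) and 17 CPM in treated p53+/- lymphoma (2.08 to 42.5). Lymphomas lay on both sides of the normal range: 1, 2 and 1 above it and 2, 3 and 4 below it in the 3 groups. The log2 fold changes were 0.36, 0.09 and -0.25 with all 8 normal thymuses and 0.60, 0.40 and 0.06 without mouse 387, with no call either way. The SD of log2 CPM was 0.59 in normal thymus and in untreated p53-/- lymphoma, 1.02 in treated p53-/- and 1.04 in treated p53+/- lymphoma, and the difference between these spreads was not tested. Cd14, the lowest in CPM, had medians of 5.94 CPM in normal thymus (3.59 to 17.5), 5.62 CPM (2.80 to 18.4), 4.21 CPM (3.11 to 20.6) and 4.90 CPM (1.82 to 36.3) in the lymphoma groups in the same order. Its highest normal value was again mouse 387, and its log2 fold changes of 0.17, 0.14 and 0.03 had standard errors of 0.53, 0.51 and 0.49. Without mouse 387 they were 0.58, 0.68 and 0.65, and none was called. The 5 genes with mouse 387 as the highest normal thymus (Lyz2, Csf1r, Adgre1, Itgam and Cd14) were thus high in a library that was also high in fat, B cell and red cell transcripts, which summed to 11727, 1361 and 6151 CPM there. The part of those other cells in the values was not tested.

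The macrophage and myeloid genes were then set beside lists of the pathways they work in, counted in the same fits. The lists were chosen with earlier results of these data known, and the shares called over all genes, 40.7%, 52.1% and 50.9% in the 3 groups, are the background. Medians of the lists come from the fit with all 8 normal thymuses. They are also given without mouse 387 for the macrophage, CSF1 receptor, complement, CD14 and mannose receptor partner and dead-cell uptake lists. For the other lists they are not, so how far those medians rest on it cannot be read here. Of 20 other macrophage genes, 1, 1 and 2 were called higher and 4, 5 and 3 lower in the 3 groups, with median log2 fold changes of -0.25, -0.59 and -0.14 against 0.08, -0.04 and -0.00 over all genes. Trem2, a lipid-sensing receptor of tissue macrophages, rose in all 3 groups (log2 fold change 1.78, SE 0.47, adjusted p = 0.00246 in untreated p53-/-; 1.42 and 1.45 in the others), and Lgmn, a lysosomal protease, rose in treated p53+/- lymphoma (0.69, adjusted p = 0.0379). The Lgmn call was lost when any of 8 single mice was left out (25, 615, 624, 787, 818, 905, 908 or 980) and under 5 of 15 other settings. Timd4, a phosphatidylserine receptor, fell by 2.94 and Cd163, the haemoglobin scavenger receptor, by 2.86 on the log2 scale in treated p53-/- lymphoma (adjusted p = 0.000509 and 0.000724), and both were also called lower in the other 2 groups. Of those calls, Cd163 in untreated p53-/- lymphoma was lost without mouse 387 and without mouse 881, and Timd4 in treated p53+/- lymphoma without mouse 387. Without mouse 387 the counts turned to 5, 4 and 5 higher and 2, 3 and 1 lower, with Folr2, Lgmn, Msr1 and Trem2 among the higher in each. The medians were then -0.05, -0.08 and 0.15, so the last turned direction. Genes of this list thus moved in both directions, and the balance of calls depended on a single normal thymus.

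Of the 9 genes of the CSF1 receptor pathway, 1, 2 and 1 were called higher and 3, 5 and 5 lower (median log2 fold changes -0.15, -1.05 and -0.86). Both ligands fell in all 3 groups: the log2 fold changes were -1.54, -1.93 and -1.96 for Csf1 and -2.24, -1.83 and -2.26 for Il34 (adjusted p for Il34 in treated p53+/- lymphoma 1.41e-05). Cebpa, a myeloid transcription factor that fat cells also express, fell in all 3 as well (-3.37, -3.79 and -3.61, adjusted p = 1.02e-09 in treated p53-/- lymphoma). Spi1, which encodes PU.1, was not called, at -0.17, -0.79 and -0.60 (adjusted p = 0.751, 0.0625 and 0.133). The adaptor Grb2 rose in all 3 groups, by 0.51 in treated p53+/- lymphoma (adjusted p = 0.000655), and Runx1 in treated p53-/- lymphoma (1.07, adjusted p = 0.00708). Without mouse 387 the medians of the list were 0.17, -0.78 and -0.59, so that of untreated p53-/- lymphoma turned direction. The counts were then 1, 2 and 1 higher and 3 lower in each group. The fat cell markers, which summed to a median of 3072 CPM in normal thymus and 73.9 CPM in the lymphomas, move with these counts, and their part was not tested.

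Of 10 genes from the rest of the complement system, 1 was called higher in each group and 4, 6 and 5 lower (medians -1.04, -1.42 and -1.04). Without mouse 387 these medians were 0.1, -0.15 and 0.23, so the first and last turned direction. C3ar1, the receptor for the C3a fragment, rose by 1.66 in treated p53-/- lymphoma (SE 0.47, adjusted p = 0.00327), and C1ra, the protease that C1q activates, fell by 1.81 there (adjusted p = 0.00275), while C2 fell by 1.96 in treated p53+/- lymphoma (adjusted p = 0.000163). The lower calls rested on mouse 387, whose summed complement transcripts reached 5467 CPM against a normal median of 775 CPM: without it 1, 0 and 0 genes were lower and 2 in each group, C3ar1 and C5ar1, were higher. Of the 10 partners of CD14 and the mannose receptor, 0 were called higher and 3, 4 and 4 lower (medians -0.58, -0.62 and -0.55). Without mouse 387 the medians of these partners were -0.31, -0.07 and 0.09, so the last turned direction. Cd209a, a lectin of dendritic cells and some macrophages, fell by 3.79 in untreated p53-/- lymphoma (adjusted p = 0.000435), and Lbp, the carrier that brings lipopolysaccharide to CD14, by 1.77 in treated p53-/- lymphoma (adjusted p = 0.0212). Tlr4, the receptor CD14 serves, was called lower in treated p53+/- lymphoma alone, and without mouse 387 the lower calls were 1, 3 and 3, with neither Lbp nor Tlr4 among them.

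Of 11 receptors and bridging proteins for the uptake of dead cells, 2, 1 and 1 were called higher and 4, 5 and 4 lower. The medians with all 8 normal thymuses were -0.79, -1.12 and -0.49, and without mouse 387 they were -0.19, -0.71 and -0.12. Tyro3, a receptor tyrosine kinase for phosphatidylserine bridges, rose in all 3 groups (log2 fold change 2.27, 2.58 and 2.39, adjusted p = 5.97e-06 in treated p53-/- lymphoma), and its ligand Gas6 fell by 3.93 there (adjusted p = 1.76e-08). Cd36, a scavenger receptor that fat and endothelial cells also carry, fell by 4.03 in treated p53+/- lymphoma (adjusted p = 2.32e-09), and Scarb1, a receptor for lipoproteins and dead cells, rose by 0.69 in untreated p53-/- lymphoma (adjusted p = 0.041). The Scarb1 call was lost under 8 of 15 other settings, with a log2 fold change down to 0.27, and when any of 10 single mice was left out (325, 615, 624, 787, 818, 881, 899, 961, 978 or 980). Without mouse 387 there were 3, 2 and 2 higher and 4 lower in each group.

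Dendritic cell markers were mostly called lower. Of 8 dendritic cell markers 7, 7 and 6 were called lower and 0 higher, with or without mouse 387. Their summed CPM was 47.2 to 222 in normal thymus and 5.86 to 84.1 in the lymphomas. Siglech of plasmacytoid dendritic cells fell by 4.47 in untreated p53-/- lymphoma (adjusted p = 7.83e-07) and Xcr1 of cross-presenting dendritic cells by 3.28 in treated p53-/- lymphoma (adjusted p = 0.000153). Of 10 neutrophil markers 1, 6 and 6 were called lower. The granule genes Ngp and Camp fell by 5.23 in treated p53-/- and 4.44 in treated p53+/- lymphoma (adjusted p = 0.000705 and 7.88e-05), and Elane had 0 counts in 5, 7 and 7 mice of the 3 lymphoma groups. Neutrophil markers summed to 2.37 to 135 CPM in the lymphomas and 10.1 to 150 CPM in normal thymus. Of 8 monocyte markers 1, 0 and 1 were called higher and 1, 4 and 3 lower: Plac8 rose by 2.20 in untreated p53-/- lymphoma (adjusted p = 0.00351) and by 1.91 in treated p53+/- lymphoma, and Ly6c2 and F13a1 fell by 2.35 and 1.98 in treated p53-/- lymphoma (adjusted p = 0.0369 and 0.00138). The Ly6c2 call was lost when any of 10 single mice was left out (387, 490, 553, 624, 659, 663, 857, 869, 961 or 978). Without mouse 387 only F13a1 was lower in each group. Lists of B cell (0, 7 and 6 lower), T cell (3, 2 and 1), fat cell (8, 8 and 8), thymic epithelial (6, 7 and 7), fibroblast and endothelial (3, 3 and 4, with Col1a2 higher in untreated p53-/-) and red cell markers (0, 1 and 3) were counted in the same way, and the B cell counts rested on mice 387 and 881 (0, 3 and 0 lower without 387, 4 lower in untreated p53-/- lymphoma without 881). Without mouse 387 red cell markers had 0 calls in each group. Fibroblast and endothelial markers then had 2, 1 and 2 lower and 2, 2 and 3 higher, with Col1a2 and Col3a1 higher in each, while the call of Col1a2 with all 8 normal thymuses was lost when any of 11 other single mice was left out (325, 562, 615, 624, 787, 818, 881, 899, 961, 978 or 980). The part of these cells in the members' values was not tested.

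**Figure D3:**
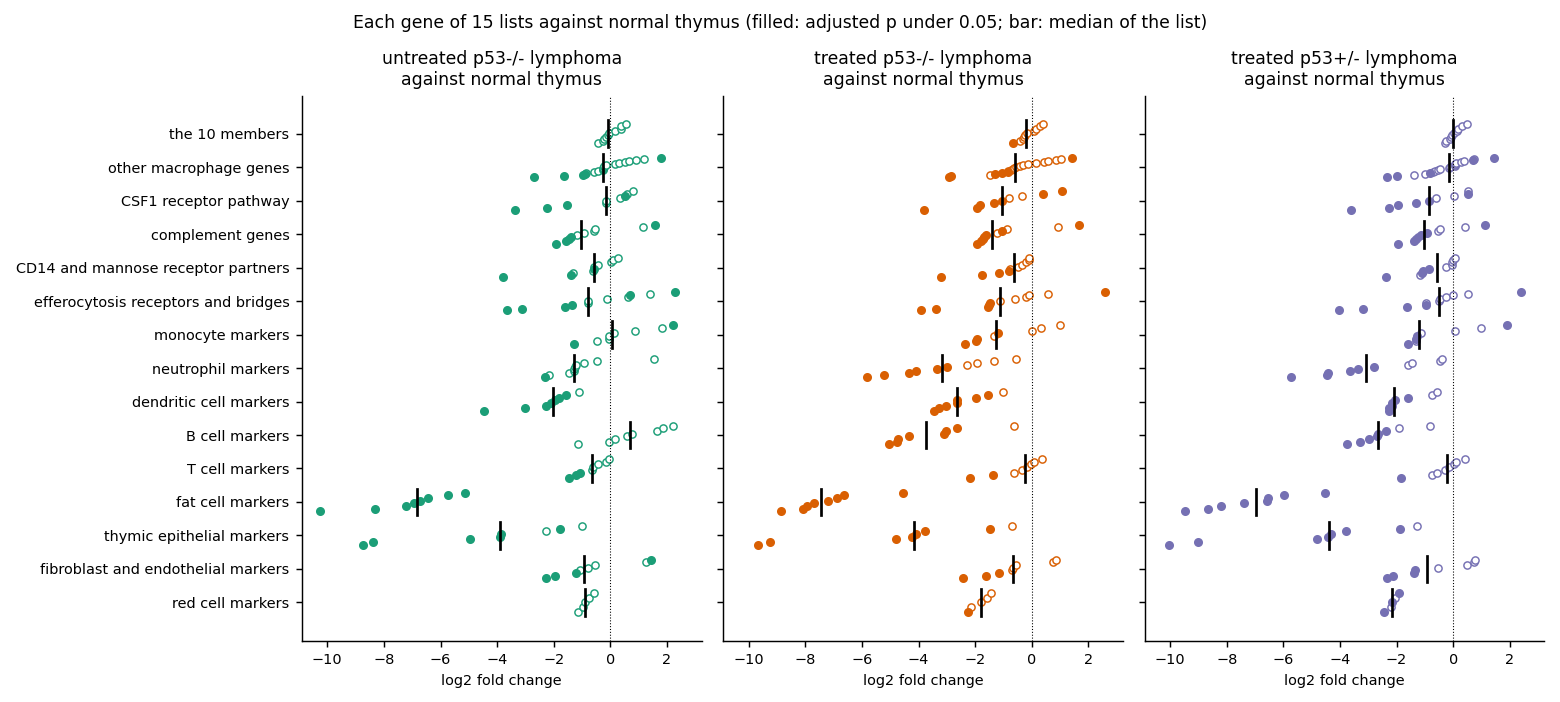
Log2 fold change of each gene of 15 lists against normal thymus in the 3 lymphoma groups (filled: adjusted p under 0.05; bar: median of the list). The 10 members lie close to 0 in all 3 panels, while fat cell markers have medians of -6.84, -7.44 and -6.98 and dendritic cell markers of -2.03, -2.63 and -2.11.

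The second question was whether p53 genotype and doxycycline went with different macrophage and myeloid levels among the lymphomas themselves. By edgeR's quasi-likelihood test 0 of the 10 genes were called in any of the 3 comparisons, and 0 of 16389 genes tested were called in any of them, a share of 0%. At an unadjusted p under 0.05 there were 0 members for treated against untreated p53-/-, 2 for treated p53+/- against treated p53-/-, and 0 for treated p53+/- against untreated p53-/-, while the shares of all genes were 11.7%, 5.27% and 6.33%. DESeq2 called 75, 12 and 3 genes and limma voom 39, 1 and 1, with none of the 10 among them. The 2 members were C1qa and C1qc, and the third chain lay close by. The log2 difference, treated p53+/- minus treated p53-/-, was 0.61 for C1qa (SE 0.25, p = 0.0182, adjusted p = 0.934), 0.48 for C1qc (SE 0.22, p = 0.0348, adjusted p = 0.94) and 0.45 for C1qb (SE 0.22, p = 0.0517, adjusted p = 0.94). The groups overlapped for each chain, although the highest C1qa levels, 237, 256 and 284 CPM, were all in treated p53+/- mice and the highest treated p53-/- value was 149 CPM. The other 7 members differed by -0.34 (Adgre1) to 0.29 (Csf1r) on that scale. Against untreated p53-/- lymphoma, Adgre1 was lower in treated p53+/- lymphoma by a log2 difference of -0.64 (SE 0.39, adjusted p = 0.826), or of -0.16 without sex in the model. Labelled sex differs between these groups, with 9 of 10 untreated p53-/- and 3 of 12 treated p53+/- mice male. Treated against untreated p53-/- lymphoma gave member differences from -0.30 (Adgre1) to 0.12 (Lyz2), with standard errors of 0.24 to 0.54.

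How the 10 genes varied among themselves was read from the 31 lymphoma mice, as Pearson's r and Spearman's rho of log2 CPM for the 45 pairs, each with a permutation test and Benjamini-Hochberg adjustment over the 45. All pairs share library and depth. Of the 45, 44 had a positive r and 33 an adjusted p under 0.05, with a median r of 0.46 and a range from -0.09 to 0.95. Over all 84441510 pairs of the 12996 protein-coding genes with a mean of at least 1 CPM the median r was 0.0, with 50.3% of the pairs positive. The lowest r among the 33 was 0.38, which 34 of the 45 pairs and 6.93% of all pairs reached. The 3 chains of C1q formed the tightest group: r was 0.95 for C1qb with C1qc (rho 0.94), 0.92 for C1qa with C1qb (rho 0.90) and 0.90 for C1qa with C1qc (rho 0.91). Each had the smallest p that 100000 permutations can give (1e-05, adjusted p = 7.5e-05), and within the 3 lymphoma groups r for C1qb with C1qc was 0.93, 0.96 and 0.96. Cd68 followed them (r 0.86 with C1qb, 0.82 with C1qc and 0.77 with C1qa), then Csf1r (0.75 with C1qc, permutation p = 2e-05, adjusted p = 0.000129). Without the 2 mice farthest from the median of the first gene, r was 0.93 for C1qb with C1qc, 0.80 for Cd68 with C1qb and 0.70 for Csf1r with C1qc.

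Outside this group the pairs were looser. Adgre1 varied most closely with Itgam (r 0.61, rho 0.49, permutation p = 0.00024, adjusted p = 0.000982; 0.55 without the 2 farthest mice). Adgre1 with Mrc1 gave r 0.51 (adjusted p = 0.0148) but rho 0.23 (adjusted p = 0.235) and r 0.17 without the 2 farthest mice, so that relation rested on those mice. Cd68 with Csf1r gave r 0.55 over all mice (adjusted p = 0.00478), with -0.10 in untreated p53-/-, 0.66 in treated p53-/- and 0.85 in treated p53+/- lymphoma. It did not hold within the first group, and the difference between groups was not tested. Lyz2 varied with C1qa (r 0.63, adjusted p = 0.000585) but not past the threshold with Itgam (r 0.11, adjusted p = 0.577) or Mrc1 (r -0.09, adjusted p = 0.621), which was the loosest pair. Cd14 had its highest r with Adgre1 (0.48) and its lowest with Mrc1 (0.17). With the 18 single-biopsy lymphomas alone 20 of 45 pairs passed, at a median r of 0.52.

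For contrast with the C1q genes and Cd68, the upstream bases of Mrc1 and Lyz2, the loosest pair, are shown in the same way (RefSeq, GRCm38.p6, chr2:14229164-14229391 on the plus strand and chr10:117282322-117282522 on the minus strand).
Mrc1: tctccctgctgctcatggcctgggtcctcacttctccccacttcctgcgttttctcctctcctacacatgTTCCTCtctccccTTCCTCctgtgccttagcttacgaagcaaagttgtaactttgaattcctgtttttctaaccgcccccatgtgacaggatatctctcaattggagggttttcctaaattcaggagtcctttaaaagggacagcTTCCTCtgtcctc
Lyz2: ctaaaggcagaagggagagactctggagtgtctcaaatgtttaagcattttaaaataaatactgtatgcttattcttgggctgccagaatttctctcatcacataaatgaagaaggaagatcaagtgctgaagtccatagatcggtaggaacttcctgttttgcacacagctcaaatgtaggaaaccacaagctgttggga
Mrc1 holds 3 matches to the marked motif, beginning 180, 167 and 35 bases before the start, and Lyz2 holds none in this window.

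**Figure D4:**
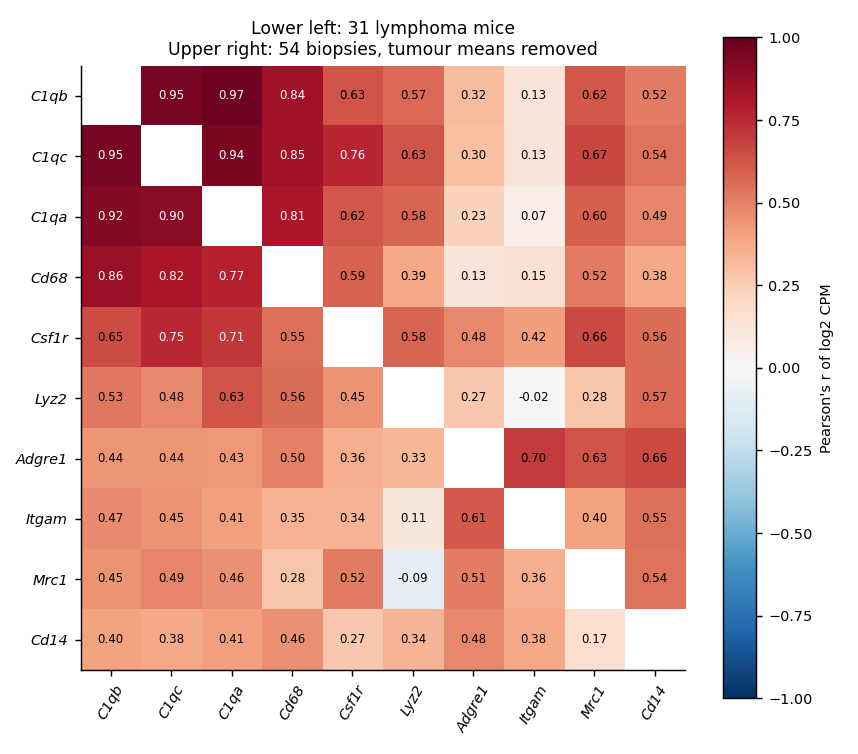
Pearson's r of log2 CPM between the 10 genes over the 31 lymphoma mice (lower left) and over the 54 biopsies of 13 multifocal tumours after each tumour's mean was removed (upper right, a description with no test). The C1q genes and Cd68 form the dark block on both sides of the diagonal, and Itgam with Lyz2 is near 0 on both.

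As a mean of the 10 z scores, treated p53+/- mouse 266 was highest (1.93), ahead of treated p53-/- mouse 659 (1.27) and treated p53+/- mouse 25 (1.21), and the lowest were untreated p53-/- mouse 637 (-1.21), treated p53+/- mouse 280 (-1.18) and treated p53-/- mouse 869 (-1.15). Both ends held mice of more than 1 group. Mouse 266 had the highest C1qa (284 CPM), Lyz2 (1042 CPM) and Cd14 (36.3 CPM) of all lymphomas but its Mrc1, at 22.1 CPM, was below the median of its group (29.9 CPM), and its fibroblast and endothelial markers summed to 2530 CPM, the highest of the lymphomas. Mouse 280 had the lowest Adgre1 (2.08 CPM, 27 counts) and Mrc1 (3.86 CPM, 50 counts) while its Csf1r (54.5 CPM) and Lyz2 (503 CPM) were above the medians of its group (48.8 and 434 CPM). Its Adgre1 level per C1qa was 0.0306, against 0.0576 in the next lowest lymphoma and a median of 0.15. Mouse 659 stood at the other end of that ratio, at 0.556, with 82.7 CPM of Adgre1. These mice were picked after their values were seen.

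Across all 12986 other protein-coding genes with a mean of at least 1 CPM, those whose log2 CPM was most like the members' mean z score over the 31 lymphomas were Grn (r 0.85), Tbxas1 (0.84), Cybb (0.83), Tlr13 (0.82), Anpep (0.82), Tyrobp (0.80), Camk1 (0.80), Sash1 (0.79), P2ry6 (0.78) and Pid1 (0.78). Grn encodes progranulin, a lysosomal protein, Cybb the membrane subunit of the phagocyte NADPH oxidase, Tlr13 an endosomal receptor for bacterial RNA, and Tyrobp the DAP12 adaptor that signals for Trem2. Cybb and Tyrobp were also on the list of other macrophage genes. The gene at rank 100 had r 0.65, and the median over all was 0.0. Against normal thymus Camk1 and Pid1 were called lower in all 3 lymphoma groups (by edgeR's quasi-likelihood test the log2 fold changes in treated p53-/- lymphoma were -1.06 and -1.51, adjusted p = 0.00109 and 0.000931). Sash1 was called lower in both treated groups and Cybb in treated p53-/- lymphoma, a call that was lost without mouse 387. Grn, Tbxas1, Tlr13, Anpep, Tyrobp and P2ry6 were called in none.

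The third question was how much the 10 genes vary inside 1 tumour, which 54 biopsies of 13 multifocal tumours allowed (17 of 4 untreated p53-/-, 12 of 3 treated p53-/- and 25 of 6 treated p53+/- tumours). Biopsies are regions of 1 mouse, so they give no replicates of a condition. By edgeR's quasi-likelihood F test over the tumours all 10 genes differed between tumours at an adjusted p under 0.05, as did 94.1% of the 19126 genes tested, so the count of 10 is near the background. The F values of the members were low beside it: from 2.53 for Adgre1 (adjusted p = 0.0134) and 2.92 for Lyz2 (adjusted p = 0.00511) to 6.76 for C1qc and 7.07 for C1qb (adjusted p = 7.9e-07), with a median of 5.37 against 10.25 over all genes. Tumour of origin accounted for 24.2% of the variance of log2 CPM for Adgre1, 31.5% for Lyz2, 42.8% for Mrc1, 43.1% for Cd14, 45.2% for Cd68, and 52.9% to 56.9% for Csf1r, C1qa, Itgam, C1qb and C1qc. Over 10499 genes with a mean log2 CPM inside the members' range (2.18 to 8.72) the median share was 75.3%, with quartiles at 63.8% and 83.5%. They were not matched in level to each member. Beside these genes, more of the members' variance lay between biopsies of 1 tumour. Tumour 857, which has 3 of the 4 shallowest biopsies, weighed on this: without it the share was 10.6% for Adgre1, 37.0% for Csf1r and 34.0% for Cd14.

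Between the biopsies of 1 tumour the highest and lowest level differed by a median of 1.56-fold (C1qc) to 2.86-fold (Cd14), and the spread exceeded 2-fold in 10 of 13 tumours for Adgre1, in 9 for Cd14 and in 3 to 6 for the other 8 genes. The SD of log2 CPM within a tumour was 0.63 for Adgre1, 0.67 for Cd14 and 0.40 for both Cd68 and C1qb. Each biopsy is a library of its own, so differences between regions and between library preparations cannot be told apart. In tumour 862 (treated p53+/-) C1qa was 92.6, 55.4, 87.3, 181 and 201 CPM in biopsies 1, 3, 5, 7 and 9. Adgre1 was 23.9, 12.9, 20.9, 15.6 and 55.6 CPM in the same biopsies. Biopsy 9 was highest for 9 of the 10 genes and biopsy 3 lowest for 9, but biopsy 7, high in C1qa, was not high in Adgre1. Cd14 differed by 6.12-fold in this tumour, the widest of any gene and tumour.

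Over the 13 tumours, 1 biopsy was highest for 8 or more of the 10 genes in 5 (202, 862, 870, 894 and 908), for 6 or 7 in 5 (857, 869, 881, 884 and 905), and for 4 or 5 in 3 (325, 899 and 903). The tumours described here were picked after their values were seen. Biopsy 3 of tumour 202 (untreated p53-/-) was the highest of 4 for all 10 genes, with Adgre1 at 29 CPM against 10.5, 12.2 and 10.9 CPM and Itgam at 32.6 CPM against 9.18, 9.76 and 12.3 CPM. C1qa rose less there, at 127 CPM against 81.3, 106 and 85.8 CPM. In tumour 870 (treated p53-/-) biopsy 5 was highest and biopsy 3 lowest for 9 genes, and Csf1r ran from 23.7 to 103 CPM. In tumour 908 (treated p53+/-) biopsy 7 held 418 CPM of C1qa against 202, 162 and 192 CPM and was highest for 8 genes, yet its Lyz2 was 429 CPM against 418, 490 and 721 CPM. In tumour 869 (treated p53-/-) biopsy 3 had the highest C1qa, 150 CPM against 36.5, 66.7 and 42.6 CPM, and the lowest Adgre1, 6.33 CPM against 11.2, 19.8 and 16.1 CPM.

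**Figure D5:**
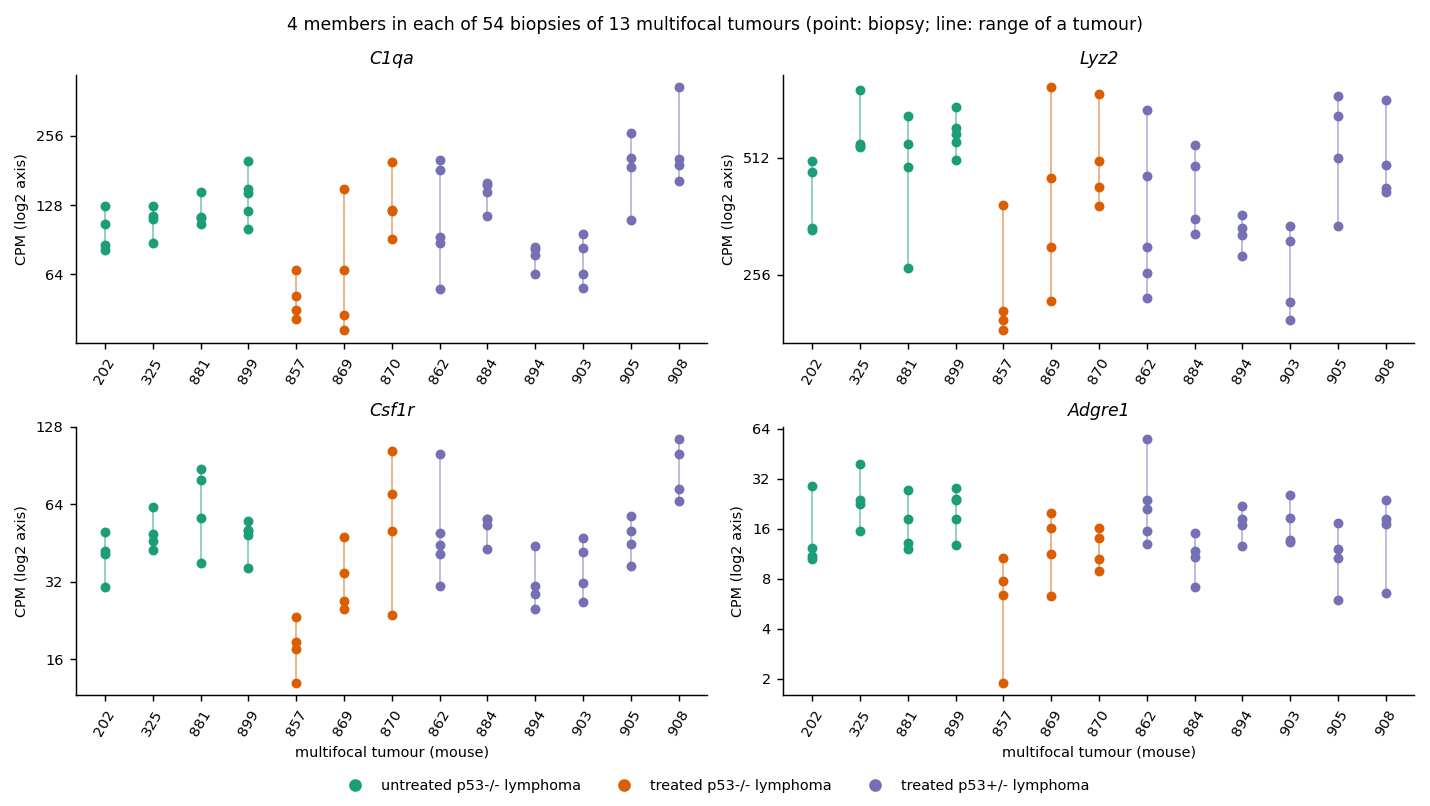
CPM (log2 axis) of C1qa, Lyz2, Csf1r and Adgre1 in each of 54 biopsies of 13 multifocal tumours; points are biopsies, lines the range of a tumour, colours the lymphoma group. The range within 1 tumour reaches 4.11-fold for C1qa (tumour 869), 4.34-fold for Csf1r (tumour 870) and 5.62-fold for Adgre1 (tumour 857). The Adgre1 range rests on few counts: the lowest biopsy held 6, and the highest is the shallowest library of all.

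Once each tumour's mean was removed, the biopsies showed which genes moved together from region to region, as a description over 54 biopsies that share their library between genes. The C1q chains had r between 0.94 and 0.97, and Cd68 with them 0.81 to 0.85. A looser set joined Adgre1 with Itgam (0.70), Cd14 (0.66) and Mrc1 (0.63), and Itgam had r 0.07 with C1qa and -0.02 with Lyz2. The C1q block and the low value of Itgam with Lyz2 were thus seen both between mice and between regions of 1 tumour, whereas Mrc1 with Lyz2, at -0.09 between mice, was 0.28 within tumours.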

How the data were processed

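RNA was taken from snap-frozen thymus and lymphoma, per the labels' protocols, with 1, 4 or 5 biopsies a mouse. Per the submitters' processing notes the tools were CASAVA 1.8, fastp, STAR 2.7.2b and RSEM 1.1.17 on mm10. The deposited table holds RSEM expected counts per gene, made by the authors from these tools. Strandedness is not given in the sources used here, so reads of overlapping genes cannot be told apart. Of the values, 14.25% were not whole and all were rounded. Biopsies were summed per mouse. Symbols and types came from GENCODE M21, which held 51633 of the IDs (99.63%). Itgam has a second gene model with 84 counts in all against 26992, and the larger model was used.

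Tests used edgeR 4.0.16 in R 4.3.3 (TMM scaling, filterByExpr, robust quasi-likelihood test, labelled sex as covariate), with Benjamini-Hochberg adjustment over all genes tested. Normal thymus and the 3 lymphoma groups shared one fit, the lymphoma groups another, and the 54 biopsies one over tumours. The 3 comparisons with normal thymus share its 8 mice. Correlations and z scores used TMM-scaled log2 CPM with a prior count of 2 and 100000 permutations (scipy 1.17.1). Scripts were tested on simulated data. Alternatives were DESeq2 1.42.0, limma 3.58.1 voom, other scaling, filters, sex terms and samples, and leaving out each mouse. The members, lists and tests were chosen with earlier results of these data known. Genes named from a list were at most the 2 called with the largest log2 fold change in each direction in any comparison with normal thymus, at a mean log2 CPM of at least 0, and any others were named after their values were seen. The normal p53+/- thymus of mouse 819 entered no test except 1 alternative.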

Additional observations from a re-analysis of the deposited data

Results flagged for a closer look

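Single samples lay far from the rest of their group, with a gap to the nearest sample above the 95% critical value of Dixon's test for the group's size. Chance alone gives about 1 such group in 20. Over the 10 genes this held in 3 of 30 sets of mice (groups of more than 10 were not examined) and in 5 of 130 sets of biopsies. Normal thymus of mouse 387 was far above the other 7 for Itgam (78.5 CPM, next 17.7 CPM) and for Cd14 (17.5 CPM, next 7.41 CPM). Its 10 neutrophil markers summed to 14.5 CPM, against a normal median of 47.2 CPM. Untreated p53-/- mouse 643 was far below its group for Lyz2, at 125 CPM.

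In the multifocal tumours Adgre1 was high in biopsy 3 of tumour 202 (29 CPM, the others 10.5 to 12.2 CPM). Lyz2 was high in biopsy 5 of tumour 325 (767 CPM, the others 545 to 557 CPM) and in biopsy 5 of tumour 857 (388 CPM, the others 184 to 207 CPM), the latter from the shallowest library of all. In tumour 908 Cd68 was high in biopsy 7 (131 CPM, the others 62.2 to 68.9 CPM) and Itgam low in biopsy 5 (13.6 CPM, the others 33.7 to 37.3 CPM).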

How the results depend on the processing

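The call of C1qa in treated p53-/- lymphoma was the only member called against normal thymus, and 0 members were called there with limma voom, with a minimum fold change, without the count filter, with only the 2 groups compared in the fit, with sex taken from expression, with single-biopsy tumours, and without the 3 mice of discordant sex; the cause was not tested. It held with DESeq2, other or no scaling, no sex term, the first biopsy of each tumour, and mouse 819 added. Leaving out each mouse gave 0 to 1 members called in untreated p53-/-, 0 to 1 in treated p53-/- and 0 to 2 in treated p53+/- lymphoma, 0 to 0 in the comparisons among lymphomas, and 9 to 10 between tumours (9 without 857 or 881). Between untreated p53-/- tumours alone 6 members were called, with fewer tumours in that fit. The shares of all genes called in these tumour fits are not given here, so their counts cannot be read as particular to the members. With single-biopsy tumours only, 20 pairs of genes passed, in 18 mice. A minimum fold change left 1861, 3216 and 2934 of all genes called in the 3 groups, against 7270, 9293 and 9079. In untreated p53-/- lymphoma 56.9% of called genes were higher, but 44.1% with voom and 46.6% without scaling, where the median of all genes moved from 0.08 to -0.05 (in treated p53+/- lymphoma from -0.00 to -0.12).

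Values that changed sign were all uncalled. In untreated p53-/- lymphoma, with only the 2 groups fitted, they were Csf1r 0.12, C1qb 0.17, C1qc 0.15, Mrc1 0.05 and Lyz2 0.20; with voom C1qb 0.02, Lyz2 0.07 and Cd14 -0.05; without sex Itgam -0.10 and Cd14 -0.08; C1qb was 0.04 with single-biopsy tumours and 0.01 without the 3 discordant mice. In treated p53-/- lymphoma they were Adgre1 -0.08 and Cd14 -0.13 with voom, and Cd14 -0.03 with first biopsies. In treated p53+/- lymphoma, Lyz2 was 0.06 with voom, 0.03 with 2 groups and 0.21 with single biopsies; C1qa was 0.01 with 2 groups and 0.02 without the discordant mice; Csf1r was 0.04 with single biopsies; Cd14 was -0.00 with DESeq2 and RLE scaling, -0.06 with first biopsies, -0.31 with voom, -0.02 without scaling, -0.07 with 2 groups and -0.01 with sex from expression. Over single mice left out, Csf1r ran from -0.34 to 0.15, C1qb from -0.22 to 0.20, C1qc from -0.25 to 0.12, Lyz2 from -0.32 to 0.32 and Cd14 from -0.08 to 0.58 in untreated p53-/- lymphoma; Adgre1 from -0.30 to 0.40, Csf1r from -0.57 to 0.05, Lyz2 from -0.36 to 0.43 and Cd14 from -0.14 to 0.68 in treated p53-/- lymphoma; and Adgre1 from -0.36 to 0.06, Csf1r from -0.28 to 0.33, C1qa from -0.20 to 0.09, Lyz2 from -0.16 to 0.58, Cd14 from -0.45 to 0.65 and Lyz1 from -1.20 to 0.24 in treated p53+/- lymphoma. Depth limits Adgre1 and Cd14 most: biopsies of tumour 857 held 6 to 39 counts of Adgre1.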

Other observations

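Ratios of 2 members within a mouse do not depend on the library total. They were chosen after the values were seen, so they are given as ranges with no test, and the share of other gene pairs that differ as much was not computed. The level of Cd68 per C1qa was 0.214 to 0.341 in the 8 normal p53+/+ thymuses (median 0.301), 0.434 to 0.984 in untreated p53-/- lymphoma, 0.355 to 0.722 in treated p53-/- lymphoma and 0.301 to 0.512 in treated p53+/- lymphoma. Of the other ratios to C1qa that were looked at, those of Adgre1, Mrc1, Itgam, Lyz2 and Csf1r overlapped between normal thymus and each lymphoma group.

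C1qa per C1qb was 0.795 to 1.04 in normal thymus (median 0.939), with medians of 0.708, 0.691 and 0.738 in the 3 lymphoma groups and ranges of 0.5 to 0.867, 0.545 to 0.817 and 0.571 to 0.907. These ranges overlap the normal one, but 7 of 10, 7 of 9 and 9 of 12 lymphomas lay below every normal thymus and 0 above. C1qc per C1qb had a median of 0.762 in normal thymus (0.706 to 0.995) and medians of 0.791, 0.709 and 0.775 in the lymphomas. The ratios carry each gene's exon length, so only their change between groups can be read.

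The normal p53+/- thymus of mouse 819, which entered no comparison of the report and 1 alternative only, held C1qa at 182 CPM, C1qb at 192 CPM, C1qc at 136 CPM, Cd68 at 46.2 CPM, Lyz2 at 521 CPM, Csf1r at 68.6 CPM, Adgre1 at 20.3 CPM, Itgam at 12.8 CPM, Mrc1 at 35.2 CPM and Cd14 at 5.06 CPM, all inside the range of the p53+/+ thymuses, and its fat cell markers summed to 217 CPM against 1125 CPM or more there.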
